A study of Mus musculus with 6 samples.

Results

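The 10 genes described here belong to the MHC class I pathway of antigen presentation. They were taken by name from the gene counts of muscle of *Tarsl2*+/+ and *Tarsl2*-/- mice, 10 of 53084 genes in the table, and all 10 had enough reads to be tested. They encode the class I heavy chains (*H2-K1*, *H2-D1*), the light chain (*B2m*), the peptide transporter and its loading partner (*Tap1*, *Tap2*, *Tapbp*), the catalytic subunits of the immunoproteasome (*Psmb8*, *Psmb9*, *Psmb10*) and the class I transactivator (*Nlrc5*). In *Tarsl2*-/- muscle *B2m* was 28.3% and *Psmb9* 35.8% lower than in *Tarsl2*+/+ muscle, and both passed the test across all genes. The other 8 genes did not pass, although each had a negative log2 fold change.

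MHC class I molecules display peptides from inside the cell to CD8 T cells. The proteasome cuts proteins into peptides, the transporter TAP carries them into the endoplasmic reticulum, and tapasin holds the heavy chain and β2-microglobulin at the transporter until a peptide is bound. Interferon gamma raises nearly all of these genes and exchanges the catalytic subunits of the proteasome for the immunoproteasome subunits. Resting skeletal muscle fibres display little class I, whereas leukocytes and endothelial cells carry more of it.

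The 6 libraries came from 3 *Tarsl2*+/+ mice (583, 584 and 595) and 3 *Tarsl2*-/- mice (588, 589 and 591), 1 library per mouse, all male, 6 weeks old, on standard chow and kept in a specific pathogen-free room. The deletion was made in zygotes with Cas9 and guide RNAs on both sides of exon 3, so every cell of the *Tarsl2*-/- mice carries it. The records give the strain as C57BL/6, and the methods name C57BL/6J for the zygotes and for the mice they were crossed with. The number of founder lines and the muscle that was dissected are not given in the sources used here. Each library held between 16176591 and 20123767 counts, at which 3 counts correspond to 0.149 to 0.185 CPM (counts scaled to a common library total, after TMM, the trimmed mean of log ratios between libraries). *Tarsl2* itself was 92.9% lower in *Tarsl2*-/- muscle, with 30 to 40 counts against 456 to 605. The record of mouse 589 spells its group as KOT, and that mouse had 30 *Tarsl2* counts. The records also name an extraction from retina, but all 10 photoreceptor genes checked had at most 7 counts in any library, and the 12 muscle fibre genes checked summed to at least 91502 CPM in every library.

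In these libraries 7 of the 10 genes lie on chromosome 17 of GRCm38, in the mouse MHC. *Tapbp* spans 33915899 to 33929288 and *H2-K1* 33996017 to 34000333. The block of *Psmb9* (34181988 to 34187764), *Tap1* (34187553 to 34197225), *Psmb8* (34197721 to 34201454) and *Tap2* (34203527 to 34216321) follows, and *H2-D1* is at 35262730 to 35267499. *B2m* is on chromosome 2 (122147686 to 122153083), and *Psmb10* (105935735 to 105938444) and *Nlrc5* (94434356 to 94527272) are on chromosome 8.

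The stretches before the starts of the heavy chain and light chain genes are shown because they hold the short motifs through which this pathway is known to be controlled. They are the κB site bound by NF-κB, the site for interferon regulatory factors, and the X2 and Y boxes of the module at which NLRC5 acts with RFX, CREB and NF-Y. Capitals mark, on either strand, the letters GGGNNNNNCCC (κB), AANNGAAA (interferon regulatory factor), TGACG (X2) and CCAAT (Y). Both stretches run 5′ to 3′ on the strand of the gene, from 160 to 2 bases before the start in RefSeq on build GRCm38.p6. That of *H2-K1* is chr17:34000349-34000507 on the minus strand, and that of *B2m* is chr2:122147527-122147685 on the plus strand.
H2-K1: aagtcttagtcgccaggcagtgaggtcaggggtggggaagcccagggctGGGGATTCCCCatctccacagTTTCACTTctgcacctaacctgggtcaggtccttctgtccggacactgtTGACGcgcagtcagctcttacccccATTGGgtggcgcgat
B2m: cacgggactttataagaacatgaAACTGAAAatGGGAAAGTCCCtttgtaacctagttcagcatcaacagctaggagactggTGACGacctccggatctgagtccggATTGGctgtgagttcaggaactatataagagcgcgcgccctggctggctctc

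In *H2-K1* the κB site comes first, from base -111 to -101, and the interferon regulatory factor site second, from -90 to -83. In the printed stretch of *B2m* the order of these sites is the other way round. The interferon regulatory factor site is from -137 to -130 and the κB site from -127 to -117. Another match of the κB letters lies upstream of the printed *B2m* stretch, from -187 to -177. The X2 box precedes the Y box in both printed stretches. No match of one motif overlapped a match of another in these stretches.

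The second heavy chain gene has nearly the same letters at the first pair of sites. The 30 bases that hold the κB and interferon regulatory factor sites of *H2-K1* (chr17:34000429-34000458, minus strand) and of *H2-D1* (chr17:35262923-35262952, plus strand) are printed below, with the same capitals.
H2-K1: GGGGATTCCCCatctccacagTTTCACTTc
H2-D1: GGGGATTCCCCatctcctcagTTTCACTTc

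They differ in 1 base, A18T, counted from 1 at the 5′ end with the base of *H2-K1* first. The site of *H2-D1* lies inside the gene as the count table places it, since the table starts *H2-D1* upstream of the RefSeq start.

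RefSeq windows of 250 bases before and 50 after the start were given for 8 of the 10 genes, all but *Tap2* and *Nlrc5*. *H2-K1*, *H2-D1* and *B2m* held all 4 motifs, as did 54 of 32544 RefSeq promoter windows (0.166%). *Tap1* and *Psmb9* held the κB, X2 and Y letters, and *Tapbp* held CCAAT. The windows of *Tap1* (chr17:34187306-34187605, plus strand) and *Psmb9* (chr17:34187281-34187580, minus strand) cover nearly the same bases. Their κB, X2 and Y matches are the same bases read from opposite strands, a single shared set of sites. None of these letters was found in the windows of *Psmb8* and *Psmb10*. A further motif searched, GAS (TTCNNNGAA), was in 8.33% of all windows and, of these genes, in *Psmb8* alone. For *H2-D1*, *Tap1*, *Tapbp*, *Psmb8* and *Psmb9* all 250 bases before the RefSeq start lie in annotated exons. For *Psmb10* 52 of them do. The κB letters were in 14% of all windows, the interferon regulatory factor letters in 23.9%, TGACG in 20.9% and CCAAT in 37.4%. The motif letters were chosen with the windows of these genes in view, and a match is a description of letters, not of binding.

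The RNA levels of the genes in whole muscle were compared per kilobase of the gene length in the count table. *B2m* was highest in *Tarsl2*+/+ muscle, at 350.2 ± 12.9 CPM per kb (SD, n = 3), followed by *H2-D1* at 76.7 ± 6.26 and *H2-K1* at 51.4 ± 4.50. The immunoproteasome subunits spread over a wide range, with *Psmb10* at 29.0 ± 1.03, *Psmb8* at 13.2 ± 1.88 and *Psmb9* at 4.45 ± 0.222 CPM per kb. *Tapbp* was at 12.7 ± 0.581, *Tap2* at 2.08 ± 0.0647 and *Tap1* at 1.25 ± 0.0958. *Nlrc5* was lowest, at 0.209 ± 0.0276 CPM per kb. Neighbours in this order did not overlap between the 3 mice, except for *Psmb8* and *Tapbp*, whose ranges did. The order rests on the lengths in the table, which for all of these genes but *B2m* are longer than the longest protein-coding transcript. Per kilobase of that transcript in GENCODE vM21, a length tried after the values were seen, *Psmb9* was at 12.1 and *H2-K1* at 82.9 CPM per kb. *Tap1* (2.32) and *Tap2* (2.29) then changed places, with overlapping ranges, and *H2-D1* (94.1) overlapped *H2-K1*.

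**Figure D1:**
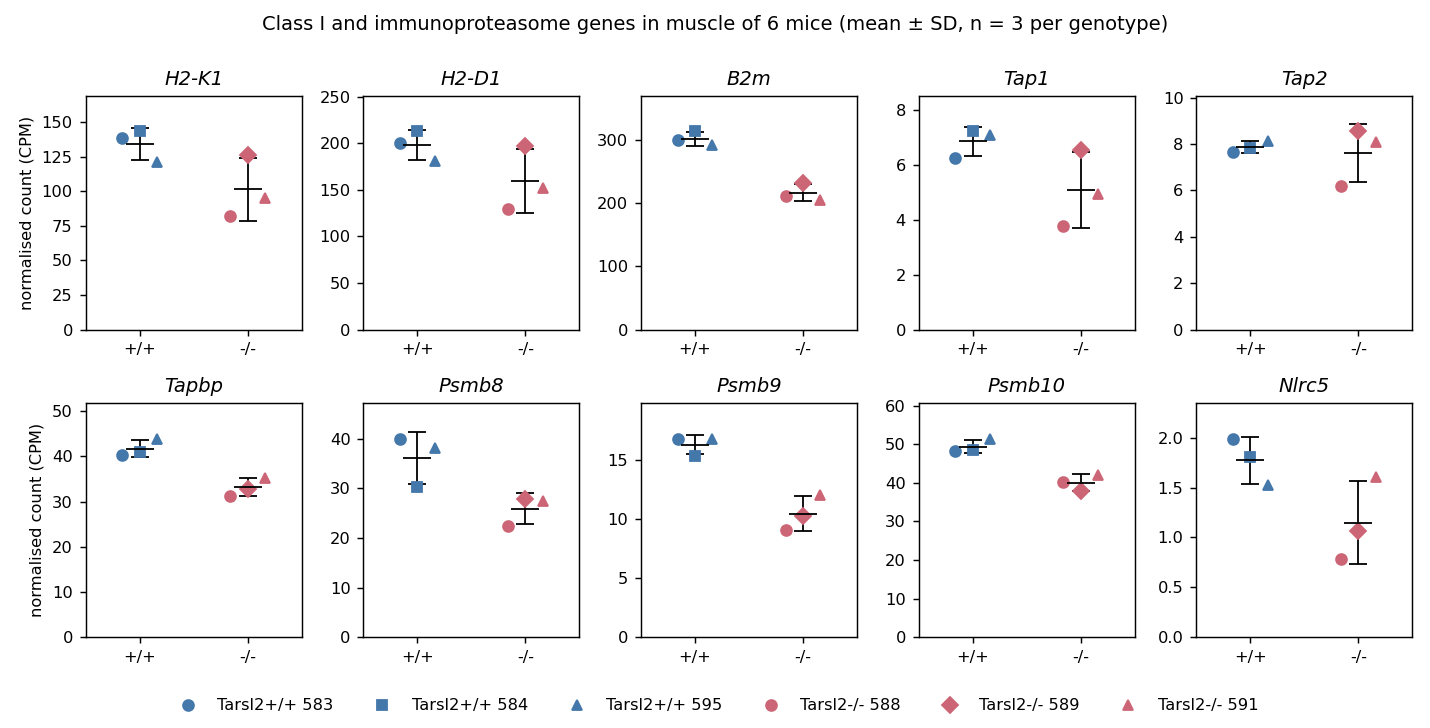
Each panel shows one gene in normalised counts (CPM, axis from 0) for the 3 Tarsl2+/+ and 3 Tarsl2-/- mice, 1 symbol per mouse, with the mean and SD as bars. The genotypes are separate in *B2m*, *Tapbp*, *Psmb8*, *Psmb9* and *Psmb10*, and Tarsl2-/- mouse 588 is the lowest of the 6 in *H2-K1*, *H2-D1*, *Tap1*, *Tap2*, *Tapbp*, *Psmb8*, *Psmb9* and *Nlrc5*.

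The heavy chains, which bind the peptide and are read by the T cell receptor, overlapped between genotypes. *H2-K1* had 138, 143 and 121 CPM in *Tarsl2*+/+ mice 583, 584 and 595, and 82.3, 126 and 95.5 CPM in *Tarsl2*-/- mice 588, 589 and 591. *H2-D1* had 199.9, 213 and 181 CPM against 129, 197 and 152 CPM in the same order of mice. In both genes mouse 589 was within the *Tarsl2*+/+ range, and the other *Tarsl2*-/- mice were below it. The log2 fold change (*Tarsl2*-/- over *Tarsl2*+/+, here and throughout) of *H2-K1* was -0.41, with a standard error of 0.14. Its adjusted p was 0.143 by the quasi-likelihood test of edgeR, adjusted by Benjamini-Hochberg over all tested genes. That of *H2-D1* was -0.31 (standard error 0.14, adjusted p = 0.241 by the same test). When mouse 589 was left out, *H2-K1* passed with a log2 fold change of -0.59 (adjusted p = 0.0472). This was the only 1 of the 6 fits that left out 1 mouse in which *H2-K1* passed. Its log2 fold change ran from -0.59 to -0.28 over the 6.

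*B2m*, whose product pairs with every heavy chain, fell. Its level was 299, 313 and 292 CPM in the *Tarsl2*+/+ mice and 212, 231 and 205 CPM in the *Tarsl2*-/- mice, a gap with no overlap in which mouse 589 was again the highest of its genotype. The means were 301 ± 11.1 and 216 ± 13.4 CPM (SD, n = 3), and the log2 fold change was -0.48 with a standard error of 0.09 (adjusted p = 0.0195). By the exact two-sided permutation test over the 6 mice p was 0.1, the smallest that 3 mice against 3 allow. The call was lost when mouse 583, 588 or 591 was left out (adjusted p = 0.0798, 0.0668 and 0.0846), while the log2 fold change stayed between -0.53 and -0.45 over all fits that left out 1 mouse.

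Of the genes for peptide transport and loading, none passed. *Tapbp*, which encodes tapasin, had 40.3, 41.0 and 43.9 CPM against 31.3, 32.9 and 35.3 CPM, so that the genotypes did not overlap. Its log2 fold change was -0.33 (standard error 0.09, adjusted p = 0.0737). *Tap1*, a subunit of the transporter, had 6.26, 7.23 and 7.09 CPM against 3.79, 6.55 and 4.96 CPM, and mouse 589 lay inside the *Tarsl2*+/+ range. Its log2 fold change was -0.43 (standard error 0.19, adjusted p = 0.243). *Tap2*, the other subunit, had 7.66, 7.81 and 8.14 CPM against 6.19, 8.55 and 8.07 CPM. Mouse 588 was below and mouse 589 above all *Tarsl2*+/+ mice, and the log2 fold change of -0.05, with a standard error of 0.15 and an adjusted p of 0.893, turned to 0.08 when mouse 588 was left out.

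The immunoproteasome subunits each replace a catalytic subunit of the constitutive proteasome and change which peptides are cut. *Psmb9*, which takes the place of *Psmb6*, had the most negative log2 fold change of the 10. It had 16.8, 15.4 and 16.7 CPM in *Tarsl2*+/+ mice and 9.09, 10.2 and 12.0 CPM in *Tarsl2*-/- mice, with no overlap and mouse 591 nearest to the *Tarsl2*+/+ mice. The means were 16.3 ± 0.814 and 10.4 ± 1.47 CPM (SD, n = 3), and the log2 fold change was -0.64 with a standard error of 0.12 (adjusted p = 0.0241). Its exact two-sided permutation p was 0.1. Leaving out mouse 583, 595, 588 or 589 took the adjusted p to 0.105, 0.0826, 0.0689 and 0.0802, with log2 fold changes from -0.76 to -0.55 over the 6 such fits.

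*Psmb8*, the counterpart of *Psmb5*, had 39.9, 30.2 and 38.1 CPM against 22.3, 27.8 and 27.5 CPM. The genotypes did not overlap, but mouse 584 came close to mice 589 and 591. Its log2 fold change was -0.48 (standard error 0.13, adjusted p = 0.0696), and without mouse 584 it passed (log2 fold change -0.59, adjusted p = 0.0231). This was the only 1 of the 6 fits that left out 1 mouse in which *Psmb8* passed. Its log2 fold change ran from -0.59 to -0.38 over the 6. *Psmb10*, the counterpart of *Psmb7*, had 48.2, 48.6 and 51.4 CPM against 40.3, 37.8 and 42.1 CPM, also without overlap. Its log2 fold change of -0.30 (standard error 0.08) had an adjusted p of 0.0836.

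*Nlrc5*, the class I transactivator, had the fewest counts of the 10. Mice 583, 584 and 595 had 34, 34 and 29 counts of it, and mice 588, 589 and 591 had 14, 17 and 33, which is 1.99, 1.81 and 1.52 against 0.780, 1.06 and 1.60 CPM. Mouse 591 lay within the *Tarsl2*+/+ range, and the other *Tarsl2*-/- mice were below it. Its log2 fold change of -0.60 was nearly as large as that of *Psmb9*, but its standard error was 0.31 and its adjusted p 0.313.

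**Figure D2:**
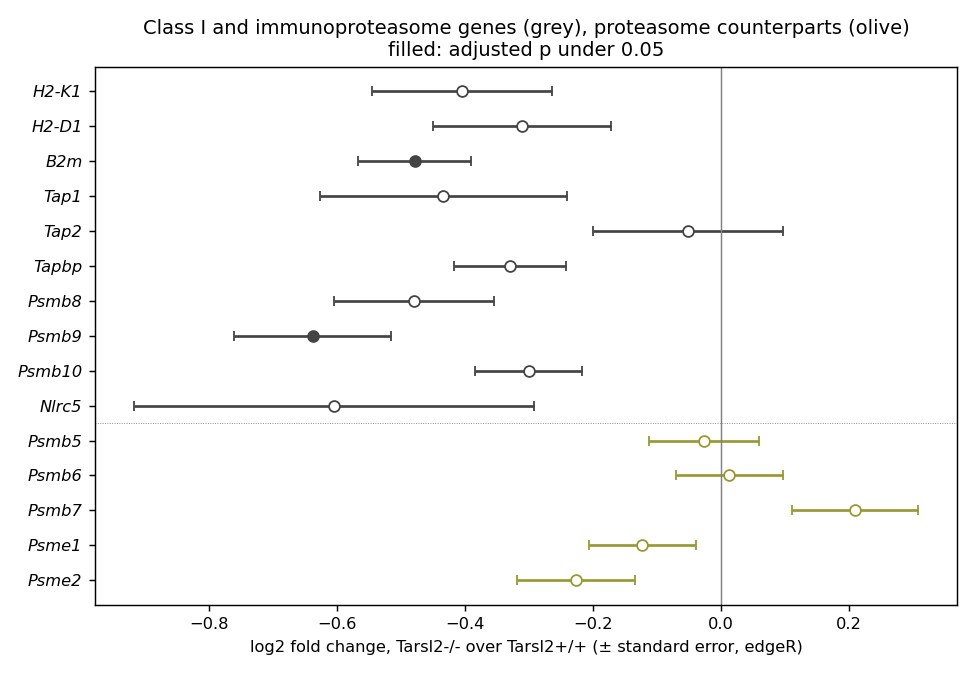
The horizontal axis is the log2 fold change (Tarsl2-/- over Tarsl2+/+) with its standard error from edgeR, for the 10 class I and immunoproteasome genes in grey and for proteasome genes outside them in olive. Filled symbols (*B2m*, *Psmb9*) have an adjusted p under 0.05, all 10 grey symbols are below 0, and *Psmb5*, *Psmb6* and *Psmb7* lie between -0.03 and 0.21.

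Over the 10 genes, 2 were lower and 0 higher in *Tarsl2*-/- muscle at an adjusted p under 0.05, where 1.37% of all 15075 tested genes were lower and 0.896% higher. At an unadjusted p under 0.05, 8 of the 10 were lower, all but *Tap2* and *Nlrc5*, against 10.2% of all tested genes. In 5 of the 10 every *Tarsl2*-/- mouse was below every *Tarsl2*+/+ mouse, against 12.0% of all tested genes. The median log2 fold change of the 10 was -0.42, and that of all tested genes was 0.00253. DESeq2, the tool the study names, put *B2m*, *Psmb8* and *Psmb9* past the threshold.

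Summed over the 10 genes, the level was 798, 821 and 760 CPM in the *Tarsl2*+/+ mice and 537, 680 and 584 CPM in the *Tarsl2*-/- mice. The sum did not overlap between genotypes, with mouse 588 lowest and mouse 589 highest among the *Tarsl2*-/- mice. *B2m* and the heavy chains make up most of it. Without mouse 588 the median log2 fold change of the 10 genes was -0.30, and without mouse 589 it was -0.53.

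The immunoproteasome was then compared with the constitutive proteasome in each mouse. The constitutive catalytic subunits did not pass in either direction, with log2 fold changes of -0.03 for *Psmb5* (adjusted p = 0.908), 0.01 for *Psmb6* (adjusted p = 0.960) and 0.21 for *Psmb7* (adjusted p = 0.271). *Psmb5* ranged from 198 to 208 CPM in *Tarsl2*+/+ and from 192 to 214 CPM in *Tarsl2*-/- mice. Per base of gene length, there were 2.70, 2.47 and 2.76 *Psmb9* reads for every 100 *Psmb6* reads in the *Tarsl2*+/+ mice, and 1.48, 1.71 and 1.84 in the *Tarsl2*-/- mice. Muscle of both genotypes held far fewer reads of *Psmb9* than of *Psmb6*. Such levels depend on the lengths used, whereas the difference between genotypes on the log2 scale does not. With the longest GENCODE transcripts, the *Tarsl2*+/+ mice had 2.85 to 3.19 *Psmb9* reads for every 100 *Psmb6* reads, 8.03 to 10.8 *Psmb8* reads for every 100 *Psmb5* reads and 26.2 to 32.4 *Psmb10* reads for every 100 *Psmb7* reads.

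For *Psmb8* there were 6.24, 4.63 and 6.14 reads for every 100 *Psmb5* reads, against 3.70, 4.61 and 4.08. Mouse 584 and mouse 589 were nearly equal in this ratio. For *Psmb10* there were 72.1, 59.5 and 73.5 reads for every 100 *Psmb7* reads, against 47.9, 47.9 and 47.1, so that the *Tarsl2*-/- mice were close together and below all *Tarsl2*+/+ mice. The log2 ratio differed by -0.66 for *Psmb9* to *Psmb6*, -0.45 for *Psmb8* to *Psmb5* and -0.51 for *Psmb10* to *Psmb7*. Each of these 3 differences had an exact two-sided permutation p of 0.1, which is also the p adjusted over the 3, and 3 mice against 3 cannot give less. *Psmb7*, the denominator of the last of these, had 134 to 164 CPM in *Tarsl2*+/+ and 158 to 179 CPM in *Tarsl2*-/- mice, ranges that overlap.

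**Figure D3:**
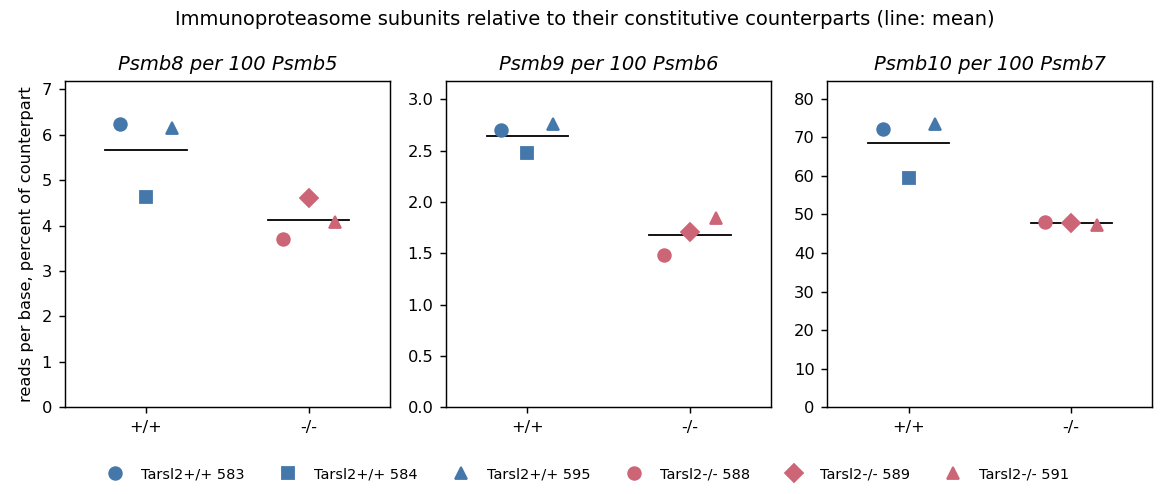
Each panel shows reads per base of an immunoproteasome subunit as a percent of those of its constitutive counterpart (axis from 0), 1 symbol per mouse, with the mean of each genotype as a line. All 3 Tarsl2-/- mice lie below the 3 Tarsl2+/+ mice in each panel, by the least margin for *Psmb8*, where 4.61 and 4.63 are neighbours.

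The regulatory particle PA28, which opens the proteasome and is also raised by interferon gamma, showed smaller differences. *Psme1* had 62.3 to 70.3 CPM in *Tarsl2*+/+ and 57.9 to 62.1 CPM in *Tarsl2*-/- mice (log2 fold change -0.12, adjusted p = 0.446). *Psme2* had 71.3 to 74.4 against 55.1 to 68.2 CPM (log2 fold change -0.23, adjusted p = 0.205). Of the 11 other subunits of the 20S core, none passed and the median log2 fold change was -0.10. Among them *Psma6* had -0.15 (adjusted p = 0.485) and *Psma3* -0.12 (adjusted p = 0.559).

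The other genes of peptide loading and trimming were *Calr*, *Canx*, *Pdia3*, *Erap1* and *Tapbpl*. None of these 5 passed, and their median was -0.21. In 3 of them every *Tarsl2*-/- mouse was below every *Tarsl2*+/+ mouse, against 12.0% of all tested genes. *Pdia3*, a partner of tapasin in the loading complex, had 230 to 259 CPM in *Tarsl2*+/+ and 174 to 205 CPM in *Tarsl2*-/- mice (log2 fold change -0.34, adjusted p = 0.0846). *Calr*, the chaperone calreticulin, had 143 to 155 against 127 to 135 CPM (log2 fold change -0.21, adjusted p = 0.194).

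Non-classical class I and class I-like genes encode heavy chains with narrower roles than *H2-K1* and *H2-D1*. Of 18 listed, 13 were tested and 0 passed in either direction by edgeR. At an unadjusted p under 0.05, 8 of the 13 were lower, against 10.2% of all tested genes. In 8 of the 13 every *Tarsl2*-/- mouse was below every *Tarsl2*+/+ mouse, against 12.0% of all tested genes. *H2-Q1* had at most 2 counts in any library, *H2-Q2*, *H2-T3* and *H2-Bl* had 0, and *H2-T9* was not found by that name. The median of the 13 was -0.33, and their values ran from -1.99 to 0.49. The 2 genes named next have the highest levels of the 13, and both differed less than the median of the list. *H2-T22*, bound by some γδ T cell receptors, had 55.6 to 58.8 CPM in *Tarsl2*+/+ and 46.9 to 49.8 CPM in *Tarsl2*-/- mice, with no overlap (log2 fold change -0.23, adjusted p = 0.148). *Fcgrt*, whose product also pairs with β2-microglobulin but carries immunoglobulin G instead of peptide, overlapped between genotypes (log2 fold change -0.13, adjusted p = 0.566).

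Genes of interferon gamma signalling and of class I control were examined next, since they act upstream. *Ifng* itself had at most 2 counts in any library. Of the 17 other genes, *Irf8* fell and the rest did not pass, with a median of -0.04. *Irf8*, a transcription factor of macrophages and other myeloid cells, had 9.24 to 11.7 CPM in *Tarsl2*+/+ and 5.86 to 7.30 CPM in *Tarsl2*-/- mice (log2 fold change -0.62, adjusted p = 0.0491). Its call was lost with limma-voom (adjusted p = 0.0549) and in 5 of the 6 fits that left out 1 mouse, all but that without mouse 584.

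Genes induced by interferon had a median of -0.53 over 28 genes, against -0.42 over the 10 class I genes. All 28 had a negative log2 fold change. At an adjusted p under 0.05, 7 fell, against 1.37% of all tested genes, and 0 rose. *Irf7*, which amplifies the type I interferon response, fell from between 19.5 and 34.0 CPM to between 8.98 and 14.3 CPM (log2 fold change -1.10, adjusted p = 0.0214). *Usp18*, which removes the ubiquitin-like protein ISG15, fell by 1.04 on the log2 scale (adjusted p = 0.0254). The interferon-inducible GTPases *Iigp1* (-0.90, adjusted p = 0.0266), *Ifi47* (-0.90, adjusted p = 0.0405) and *Irgm2* (-0.57, adjusted p = 0.0308) fell too. Each of these 5 calls was lost when mouse 583, 595, 588 or 589 was left out, with log2 fold changes from -1.17 to -0.50 in those fits.

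MHC class II genes present peptides taken up from outside and are made by professional antigen presenting cells. They fell in 5 of 8 cases, against 1.37% of all tested genes, and rose in 0, with a median of -1.23. *H2-Aa*, a class II chain, had 50.2 to 62.0 CPM in *Tarsl2*+/+ and 18.8 to 28.3 CPM in *Tarsl2*-/- mice (log2 fold change -1.24, adjusted p = 0.002). *H2-Ab1* (-1.23, adjusted p = 0.00247) and *H2-DMb1* (-1.01, adjusted p = 0.0355), a gene of class II peptide loading, fell as well, as did *Cd74*, the invariant chain, and the class II chain gene *H2-Eb1*. The call of *H2-DMb1* was lost when mouse 583, 595, 588 or 589 was left out, and those of the other 4 were kept in all 6 such fits.

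**Figure D4:**
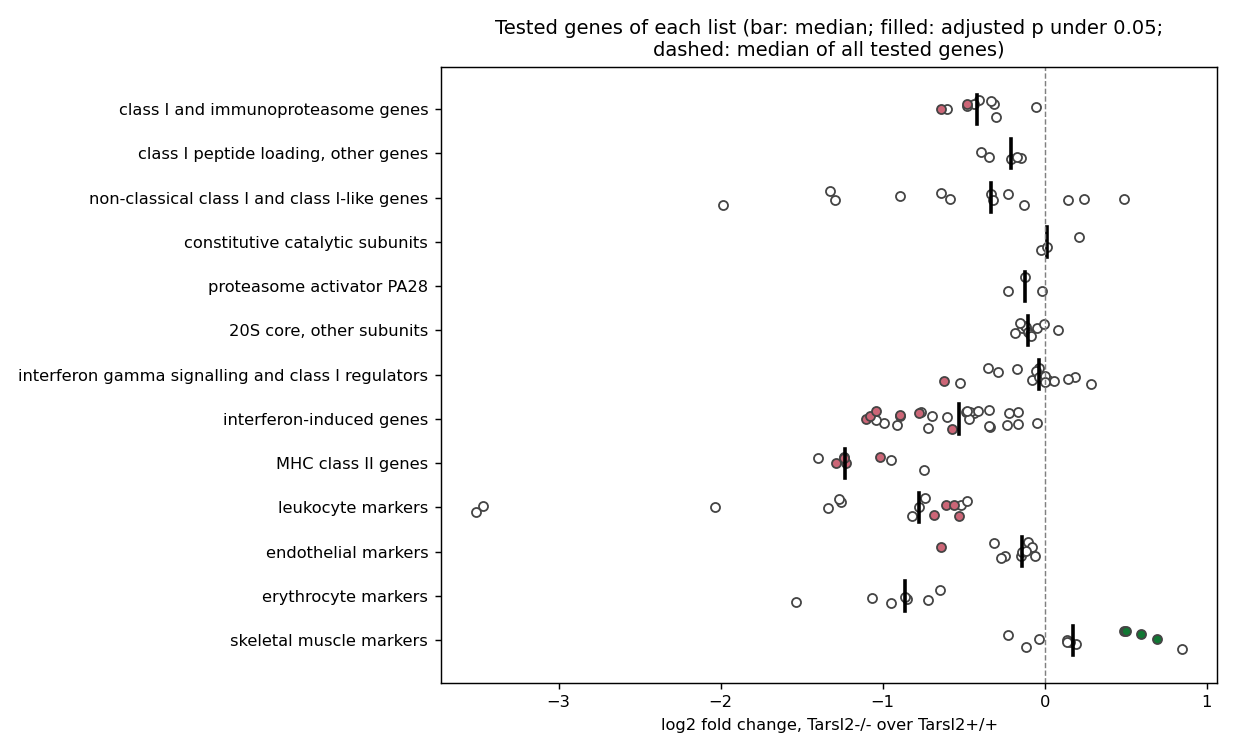
Each symbol is a tested gene at its log2 fold change (Tarsl2-/- over Tarsl2+/+), in rows by gene list, with the median of each list as a black bar and the median of all tested genes as a dashed line. Filled symbols have an adjusted p under 0.05. The class I row has its median at -0.42, the class II row at -1.23, and the constitutive catalytic subunits at 0.01.

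Class I genes are used by many cell types of muscle, so markers of those cells are given beside them. In whole muscle, fewer cells of a type and less RNA per cell cannot be told apart. Of 23 leukocyte markers, 15 were tested and 4 of these fell, against 1.37% of all tested genes. All 15 had a negative log2 fold change, with a median of -0.78. The 4 were *Csf1r*, the receptor of macrophage colony-stimulating factor (-0.53, adjusted p = 0.0167), the macrophage marker *Adgre1* (-0.56, adjusted p = 0.0355), and the pan-leukocyte genes *Cd53* (-0.68, adjusted p = 0.0305) and *Laptm5* (-0.61, adjusted p = 0.0399). All 4 calls were lost when mouse 583, 588 or 589 was left out, with log2 fold changes from -0.68 to -0.48 in those fits. All 23 markers, the untested ones included, summed to 371, 203 and 257 CPM in *Tarsl2*+/+ mice 583, 584 and 595. The sums were 154, 140 and 172 CPM in *Tarsl2*-/- mice 588, 589 and 591, without overlap. In 8 of the 15 tested markers every *Tarsl2*-/- mouse was below every *Tarsl2*+/+ mouse, against 12.0% of all tested genes. Mouse 583 was far above the other *Tarsl2*+/+ mice in some, such as *S100a8* (34.6 against 0.372 and 6.77 CPM). In others, such as *Laptm5*, it was not (28.2 against 27.4 and 37.6 CPM). The 8 untested leukocyte markers had at most 10 to 114 counts in a library, and none was at 0 throughout. A single library held 114 of the 143 counts of *Cd3g*, 31 of 36 of *Cd8a* and 84 of 109 of *Ms4a1*, all genes of lymphocytes.

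The order of mice in the leukocyte sum was not that of the class I sum. Among *Tarsl2*-/- mice, 589 had the lowest leukocyte sum and the highest class I sum, and among *Tarsl2*+/+ mice, 584 had the lowest leukocyte sum and the highest class I sum. The part of these cells in the class I values was not tested.

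Of 10 endothelial markers, *Cdh5*, a junction protein of vessels, fell (-0.64, adjusted p = 0.00929), a call lost without mouse 583. The median of the list was -0.14, and the sums of 248 to 275 CPM in *Tarsl2*+/+ and 196 to 254 CPM in *Tarsl2*-/- mice overlapped. None of the 7 erythrocyte genes passed, although their median was -0.87. Their sums were 4757 to 10418 CPM in *Tarsl2*+/+ and 4175 to 4545 CPM in *Tarsl2*-/- mice, highest in mouse 595. The log2 fold change was -0.85 for *Hba-a1* (adjusted p = 0.0676) and -0.72 for *Hbb-bs* (adjusted p = 0.119). Among 12 muscle fibre genes, *Actn3* (0.69, adjusted p = 0.00807), *Myh1* (0.59, adjusted p = 0.015), *Des* (0.50, adjusted p = 0.0196) and *Ckm* (0.49, adjusted p = 0.0433) rose and 0 fell. None of these 4 passed without mouse 583, and 0.896% of all tested genes rose with all mice. The part of these cells and fibres in the class I values was not tested either.

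Since 7 of the 10 genes share a stretch of chromosome 17, the genes between them were listed. The stretch from the start of *Tapbp* to the end of *H2-D1*, 33915899 to 35267499, is 1351.6 kb long and holds 149 genes of the table, 76 of them tested. Of the 69 tested genes other than the 7, 5 were lower and 1 higher, with a median of -0.04. Over all tested genes 1.37% were lower and 0.896% higher. The 5 were the class II genes *H2-Aa*, *H2-Ab1*, *H2-Eb1* and *H2-DMb1* and the complement gene *C4b* (-0.67, adjusted p = 0.0399), and the higher one was *Bag6* (0.41, adjusted p = 0.0449). *C4b*, *Bag6* and *H2-Ob* were named after their values were seen. The calls of *C4b* and *Bag6* did not hold without mouse 583, 595, 588 or 591. Without the 6 class II genes on the list, 63 genes remained with a median of -0.01, of which 1 was lower and 1 higher. The class II gene *H2-Ob*, which was not on the list, is among these 63. It had 5.26, 0.744 and 1.10 CPM in the *Tarsl2*+/+ mice and 0.446, 0.499 and 0.437 CPM in the *Tarsl2*-/- mice, with mouse 583 far above the rest (log2 fold change -2.33, adjusted p = 0.101, and -1.002 without mouse 583).

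**Figure D5:**
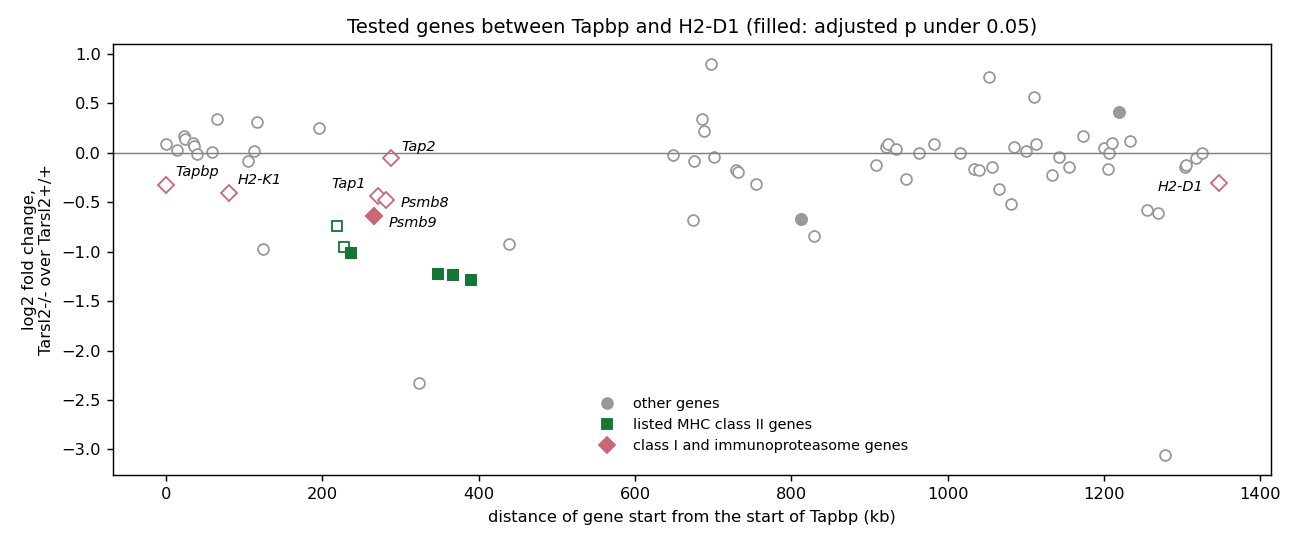
The horizontal axis is the distance in kb of each tested gene's start from the start of *Tapbp* on chromosome 17, and the vertical axis its log2 fold change (Tarsl2-/- over Tarsl2+/+). Diamonds are the 7 class I and immunoproteasome genes, squares the MHC class II genes on the list and circles all others, *H2-Ob* at -2.33 included, filled where the adjusted p is under 0.05. The 4 filled squares lie below -1 and the diamonds between -0.64 and -0.05, while most circles lie around 0.

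Some reads of these genes could belong to others. *Psmb9* and *Tap1* overlap by 212 bases on opposite strands, and without use of strand in the counting their reads there cannot be told apart. *Tapbp* overlaps *Zbtb22* on the same strand over 3421 bases, whose own log2 fold change was 0.09 (adjusted p = 0.671). The genes that overlap *B2m*, *Tap2*, *Psmb8*, *Psmb10* and *Nlrc5* had at most 8 counts in any library. Of the 100-base stretches of the *H2-D1* transcript, 4.64% also occur in other genes, among them *H2-Q6*, *H2-Q7*, *H2-T22* and *H2-T23*. The share was 14% for *Tapbp*, 9.02% for *Psmb9* and 3.96% for *Tap1* (each shared with the other), 5.35% for *Tap2* and 1.64% for *Psmb8*. None of the stretches of *H2-K1*, *B2m*, *Psmb10* and *Nlrc5* was shared.

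The genes whose levels over the 6 mice were most like the mean of the 10 were *Pid1*, *Ube2q1*, *Pced1a*, *Ccdc80* and *Stat6*. Likeness was Pearson's r of log2 CPM with the mean of the 10 genes' standardised log2 CPM, among 10815 genes of at least 2 log2 CPM. It ran from 0.978 for *Stat6*, a transcription factor of interleukin-4 signalling, to 0.993 for *Pid1*. The difference between genotypes is part of this measure, and none of the 5 passed the test, with *Ccdc80* nearest (log2 fold change -0.37, adjusted p = 0.0519).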

How the data were processed

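Muscle RNA of 3 mice per genotype was made into stranded poly(A) libraries, and paired-end reads were mapped by the authors to mm10 with HISAT2. The table they deposited holds raw counts, 1 whole number per gene and mouse. The counting tool, gene annotation and use of strand are not given in the sources used here. The submitters' processing notes name Bowtie 0.12.2 and mm8, whereas 7 of the 10 genes have the same coordinates in the table and in GENCODE vM21 (GRCm38).

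Genes were kept by filterByExpr (minimum count 10, minimum total count 15), TMM-scaled and compared between genotypes by glmQLFit and glmQLFTest of edgeR 4.0.16 (R 4.3.3), with Benjamini-Hochberg adjustment over 15075 genes and a threshold of 0.05. The standard error is the size of the log2 fold change over the root of F. The common biological coefficient of variation was 12.1%. The procedure was tested on simulated data. Every pair of libraries of one genotype differed by more than sampling noise, with a chi-square per gene of 13.0 or more. Counts carry no molecular identifiers, so limits from counts cover counting error only. Ratios of proteasome subunits used counts with 0.5 added. Alternatives were DESeq2 1.42.0, limma-voom (limma 3.58.1), RLE size factors, upper quartile normalization, other filters on low counts, a minimum log2 fold change of 1, 1 CPM added to the ratios, leaving out each mouse and, added after the values were seen, transcript lengths in place of gene lengths.

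The 10 genes and the gene lists were chosen with earlier results of these data known. Named genes were the 10 genes, the proteasome counterparts, from each other list all genes past the threshold (the 5 of smallest p where there were more, or the 2 of highest level where there was none), and the 5 genes most like the 10 over the 6 mice. Promoter windows are from RefSeq, build GRCm38.p6. Some results for single genes are left out.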

Additional observations from a re-analysis of the deposited data

How the results depend on the processing

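No paired analysis was run, since the sample labels used here give no pairing between *Tarsl2*+/+ and *Tarsl2*-/- mice. None of the 10 genes was called higher under any alternative. With RLE size factors, limma-voom, upper quartile normalization or at least 10 counts in every library, *B2m* and *Psmb9* were called as before. DESeq2 called 371 genes lower and 300 higher, 20 of the listed pathway genes lower and 9 neighbouring genes lower on chromosome 17. With no filter on low counts, 5 of the 10 genes were lower (*H2-K1*, *B2m*, *Tapbp*, *Psmb8*, *Psmb9*), among 826 lower and 611 higher genes, with 28 listed pathway genes and 14 neighbouring genes lower. A log2 fold change of at least 1 left 0 of the 10, 70 genes lower, 20 higher and 8 listed pathway genes lower. In the fits that left out 1 mouse, from 0 to 3 of the 10 genes were lower, 0 of them without mouse 583 or 588 and 1 without 595 or 591. Over the same fits, from 50 to 383 genes were lower, from 31 to 242 higher, from 4 to 18 listed pathway genes lower (13 with all mice) and from 3 to 13 neighbouring genes lower (5 with all mice). The log2 ratio stayed between -0.59 and -0.37 for *Psmb8* to *Psmb5*, between -0.73 and -0.57 for *Psmb9* to *Psmb6* and between -0.61 and -0.46 for *Psmb10* to *Psmb7*.

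Over the single genes named, in the fits with another tool, scaling or filter or with 1 mouse left out, 527 log2 fold changes kept their direction and side of the threshold, 82 kept their direction and lost the call, 20 kept it and gained one, and 6 near 0 changed sign. *Psmb6* had a log2 fold change of -0.00902 with upper quartile normalization. Over the fits that left out 1 mouse, it ran from -0.0252 (without 591) to 0.0411 for *Psmb6*, from -0.0832 to 0.00210 (without 589) for *Psmb5* and from -0.137 to 0.0764 (without 588) for *Tap2*. The cause of these differences was not tested. *Nlrc5* had at most 34 counts in a library.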
